A study of Mus musculus with 9 samples.

Results

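The peripheral neuron and Schwann cell genes comprised 29 genes, of 48397 gene symbols counted in cardiac outflow tracts of mouse embryos. They were 3 genes used as markers of sensory neurons, 4 of autonomic neurons, 6 of Schwann cells and their precursors, and 16 expressed by neurons of most kinds. They were picked by name after their levels in the deletion and wild-type libraries were known, so those levels are given as a description and support no test. All samples came from the strain C57BL/6J at embryonic day 12.5. The 5 deletion libraries were homozygous for a deleted enhancer of Nkx2-5 (genotype Nkx2-5delta-enh/delta-enh), an enhancer active in the anterior second heart field, and the 4 wild-type libraries were Nkx2-5+/+. The labels name no Cre, transgene or treatment, and do not say whether a sample was 1 embryo or a pool.

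Sensory neurons of the body wall and limbs lie in dorsal root ganglia, which form from trunk neural crest, while visceral sensory neurons of the vagal ganglia form mostly from placodes. Autonomic neurons of the heart come from neural crest as well. Sympathetic neurons make noradrenaline through tyrosine hydroxylase and then dopamine β-hydroxylase, and cardiac parasympathetic neurons use acetylcholine. Schwann cell precursors travel along the growing nerves and depend on neuregulin signalling through the receptor pair ERBB2 and ERBB3.

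Each library had between 27707435 and 49094225 reads counted on genes. Levels are given as CPM, the reads of a gene scaled to a library total of 1000000 after TMM correction. Nkx2-5 itself had 16.5, 24.3, 17.8, 11.4 and 17.4 CPM in deletions 1 to 5, against 18.8, 41.9, 45.0 and 39.5 CPM in wild types 1 to 4. For the targeted gene wild type 1 was thus below the highest deletion library, and directions below are those of the library labels. A list of 14 outflow tract genes summed to 14161 CPM in deletion 2 and to 10128 to 18981 CPM in the other 8 libraries. By gene, deletion 2 stood at 0.32 to 2.38 of the highest of the other 8 libraries, with a median of 0.63. The tissue content of the samples was not tested. The name of each deposited library carries a number, which divides them into set A (deletions 1 and 2, wild types 1 and 2) and set B (deletions 3 and 4, wild types 3 and 4). Deletion 5 carries the digits of set B in another order and was counted in set B. No source used here says what the number stands for, so this placing is an assumption. Reads not counted on a gene were 22.6% in deletion 5, 22.3% to 23.5% in set A and 20.6% to 21.3% in the rest of set B. The counts of deletion 5 differed least from those of deletion 3, a library of set B. One library stood apart for the genes described here, deletion 2, and the comparisons are therefore given with and without it.

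The 29 genes together summed to 4531 CPM in deletion 2, 0.453% of its counts. In the other 8 libraries the sum lay between 179 and 241 CPM, or 0.0179% to 0.0241% of counts. Of the 28 genes that passed the low-count filter, 23 were more than 4-fold above the highest of the other 8 libraries in deletion 2 (82.1%). Among all 16522 genes tested 232 were (1.4%), and the other libraries each had 0 to 3 such genes, none of them among the 29. Since deletion 2 was in the comparison that chose the genes, nothing is read from that excess. In bulk tissue, more cells of a type and more RNA per cell cannot be told apart.

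**Figure D1:**
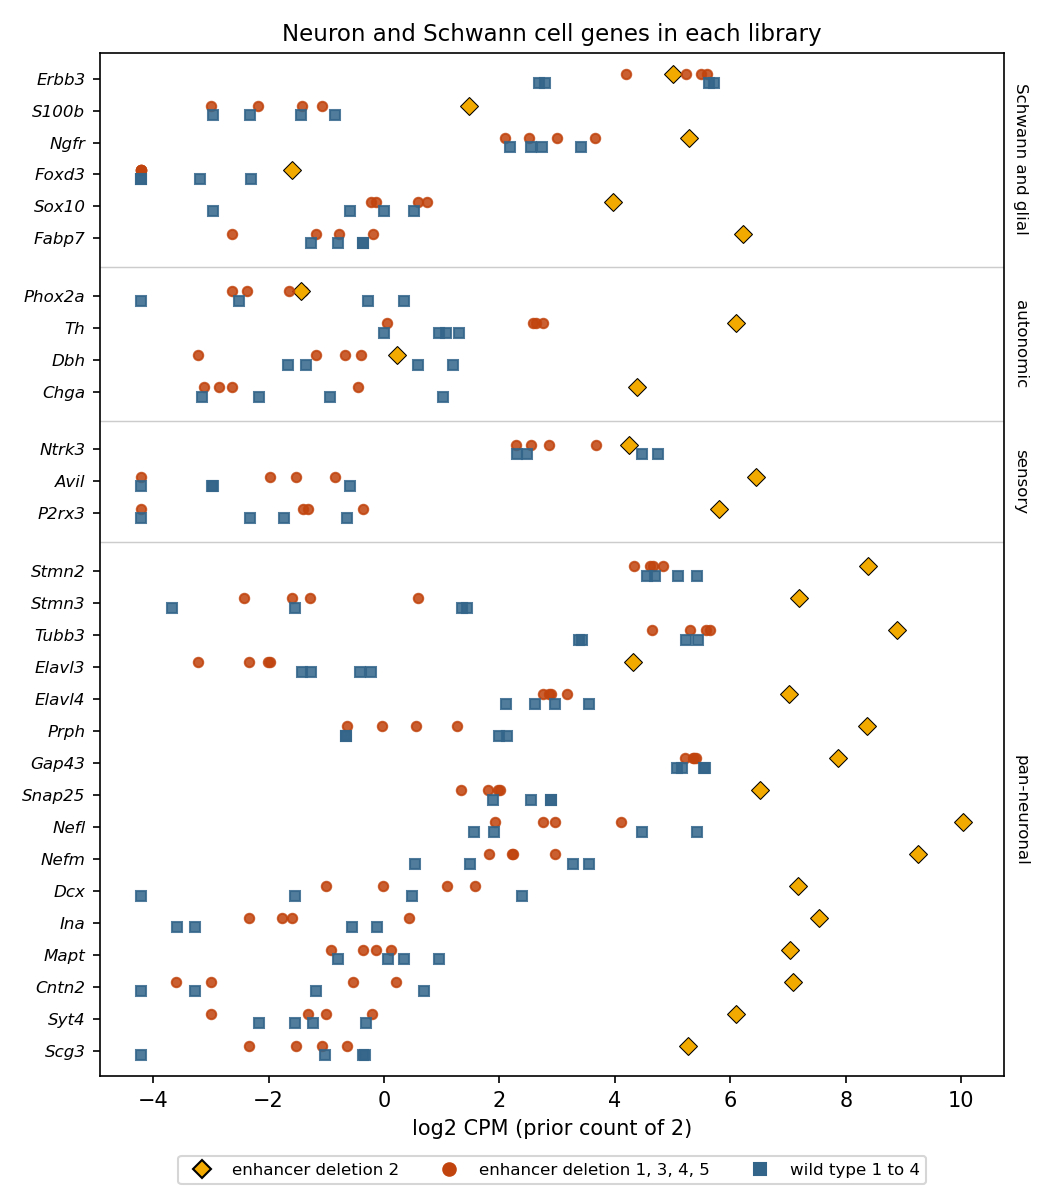
Log2 CPM (prior count of 2) of the 29 genes in each library, with deletion 2 as diamonds, the other deletion libraries as circles and wild-type libraries as squares. Deletion 2 lies right of all other libraries for 25 of 29 genes, and the other deletion libraries intermingle with the wild types.

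The sensory genes were Avil, which encodes the actin-binding protein advillin of sensory neurons, P2rx3, an ATP-gated channel of nociceptors, and Ntrk3, the receptor of neurotrophin-3. Avil had 0.201, 86.8, 0.501, 0 and 0.292 CPM in deletions 1 to 5, against 0.611, 0.0744, 0 and 0.0726 CPM in wild types 1 to 4. P2rx3 had 0.322, 55.5, 0.723, 0 and 0.345 CPM in the deletions, against 0.584, 0.248, 0 and 0.145 CPM in the wild types. Both were thus at or under 1 CPM in 8 of 9 libraries and high in deletion 2, 142-fold above the next library for Avil and 76.7-fold for P2rx3. Ntrk3 did not follow them. It had 12.6, 18.8, 4.84, 7.16 and 5.81 CPM in the deletions, against 26.8, 22.2, 4.88 and 5.54 CPM in the wild types. Its level in deletion 2 was 0.70 of the highest other library, and the genotypes overlapped.

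Genes of a wider sensory list were read in the same way. Scn9a, a voltage-gated sodium channel of peripheral neurons, had 69.4 CPM in deletion 2 and at most 1.46 CPM elsewhere. The list holds 19 genes, and 11 passed the low-count filter. Of the 11, 6 were more than 4-fold above all other libraries in deletion 2, beside 1.4% of all genes tested. This list and the further lists below were drawn up with earlier results known, and deletion 2 counted in the low-count filter. Nothing is therefore read from such an excess, here or in the lists below. The untested genes reached up to 47.7 CPM, and 5 of the 19 had 0 counts in every library other than deletion 2. Ntrk2, the receptor of brain-derived neurotrophic factor, had 32.8 CPM in deletion 2 and 27.9 to 105 CPM in the others, and Piezo2, a mechanosensitive channel, had 25.3 and 10.02 to 19.2 CPM.

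Lists for somatic and for visceral sensory neurons were read side by side. Prdm12, a regulator of nociceptor fate, had 1620 counts (56.4 CPM) in deletion 2, 4 counts in deletion 3, 1 in wild type 2 and 0 in the other 6 libraries. Prrxl1, also called Drgx, encodes a homeodomain factor of dorsal root ganglion and dorsal horn neurons and had 26.6 CPM in deletion 2 and at most 0.50 CPM elsewhere. The 8 somatic genes summed to 182 CPM in deletion 2 and to 17.1 to 33.0 CPM in the other libraries. The 8 visceral genes summed to 5.57 CPM in deletion 2 and to 1.10 to 14.3 CPM in the others. The somatic sum in deletion 2 was thus above the range of the other libraries and the visceral sum inside it. Within its own set, set A, the visceral sum of deletion 2 was the lowest. Deletion 1 and wild types 1 and 2 had 9.62, 14.3 and 12.7 CPM. The visceral receptor genes Gpr65, Glp1r and Npy2r had at most 1.18 CPM in deletion 2.

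Further sensory genes, chosen after their values were seen, add detail. Pou4f1, a factor of somatic sensory neurons, had 25.9 CPM in deletion 2 and at most 0.333 CPM elsewhere. Trpv1, the capsaicin and heat receptor, had 435 counts in deletion 2, 1 count in wild type 2 and 0 in the rest. Neurod1, a factor of early sensory neurons, had 191 counts in deletion 2 and 0 in each of the other 8 libraries. Tlx3, another factor of sensory neurons, had 91 counts in deletion 2 and likewise 0 elsewhere. With sequencing of this depth, 0 counts in the other libraries allow a level of up to 0.0604 to 0.107 CPM each, for counting error only.

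**Figure D2:**
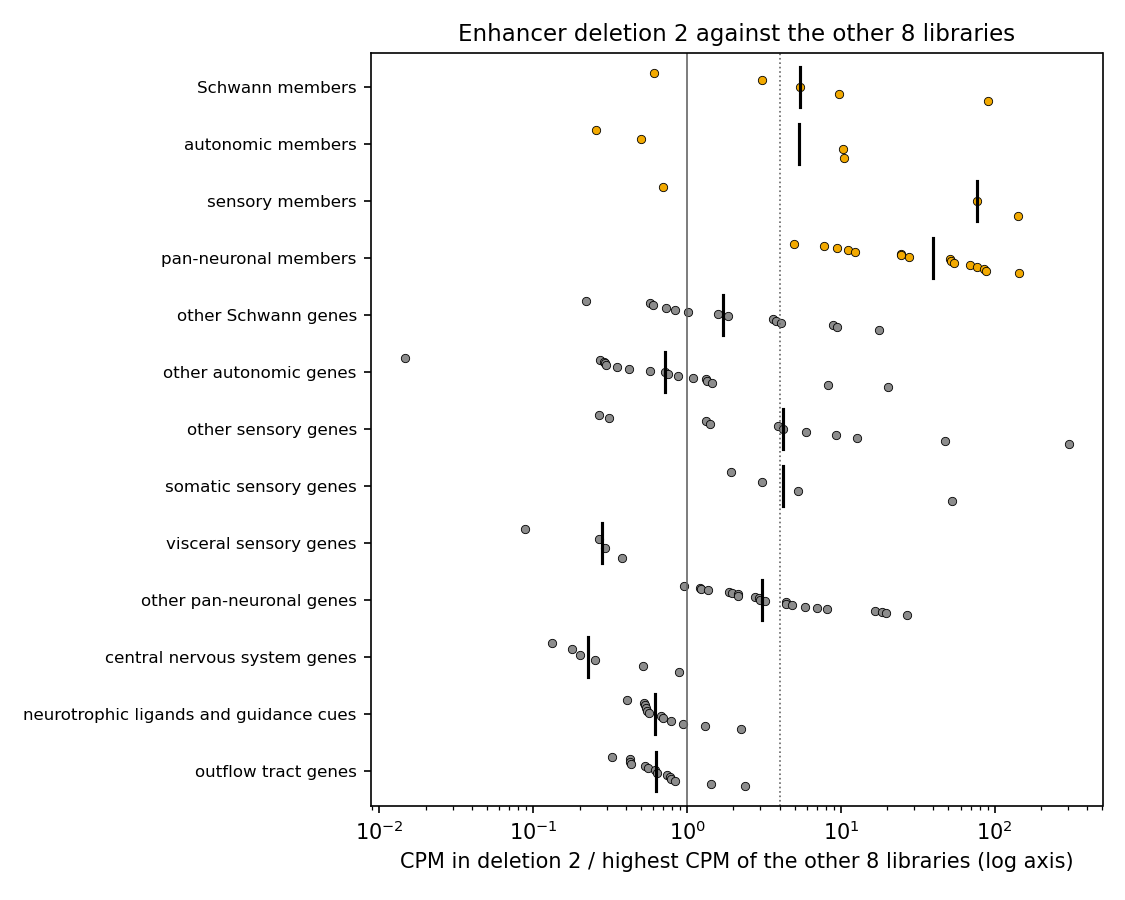
CPM in deletion 2 divided by the highest CPM of the other 8 libraries, on a log axis, for each tested gene of each list, with the 29 genes in yellow and further lists in grey. Black ticks mark list medians, the solid line marks equal levels and the dotted line 4-fold; all 16 pan-neuronal genes lie right of the dotted line, and all 4 visceral sensory genes lie left of the solid line.

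Among the autonomic genes, the enzymes of noradrenaline synthesis parted ways. Th, tyrosine hydroxylase, the rate-limiting enzyme of catecholamine synthesis, had 0.986, 68.3, 6.12, 6.66 and 5.92 CPM in deletions 1 to 5, against 2.06, 0.943, 1.89 and 2.42 CPM in wild types 1 to 4. Deletions 2 to 5 lay above all wild types, and deletion 1 lay inside their range. Dbh, which turns dopamine into noradrenaline, had 0.704, 1.11, 0.390, 0.570 and 0.0531 CPM in the deletions, against 1.45, 2.23, 0.261 and 0.339 CPM in the wild types. Dbh was thus near 1 CPM in the library in which Th was highest, and wild types 1 and 2 had more of it.

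Phox2a, the homeodomain factor that sympathetic neurons and their noradrenergic enzymes depend on, had 0.322, 0.313, 0.139, 0.107 and 0.265 CPM in the deletions, against 1.22, 0.769, 0 and 0.121 CPM in the wild types. Chga, chromogranin A of secretory granules, had 0.0604, 20.8, 0.0835, 0.677 and 0.106 CPM in the deletions, against 1.97, 0.471, 0.0581 and 0.169 CPM in the wild types. Th and Chga were 10.3-fold and 10.6-fold above the next library in deletion 2, while Dbh and Phox2a were at 0.50 and 0.26 of it. Gata3, a factor of sympathetic neurons that other tissues also express, had 18.9 CPM in deletion 2 and 13.0 to 54.0 CPM in the other libraries.

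The promoters of the 4 autonomic genes are shown as a description. Whether their letters bear on the levels in deletion 2 was not tested. Each is the 250 bases before the RefSeq gene start on GRCm38.p6, read 5′ to 3′ on the gene's strand. They lie at chr7:142899996-142900245, minus strand, for Th, chr12:102554691-102554940, plus strand, for Chga, chr2:27165257-27165506, plus strand, for Dbh, and chr7:101818063-101818312, plus strand, for Phox2a. Capitals mark the palindrome TGACGTCA, the cyclic AMP response element.
Th: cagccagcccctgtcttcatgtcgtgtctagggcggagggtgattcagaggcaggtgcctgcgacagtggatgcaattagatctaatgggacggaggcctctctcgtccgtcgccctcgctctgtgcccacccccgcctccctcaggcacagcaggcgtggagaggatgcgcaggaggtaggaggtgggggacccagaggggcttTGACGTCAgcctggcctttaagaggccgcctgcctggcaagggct
Chga: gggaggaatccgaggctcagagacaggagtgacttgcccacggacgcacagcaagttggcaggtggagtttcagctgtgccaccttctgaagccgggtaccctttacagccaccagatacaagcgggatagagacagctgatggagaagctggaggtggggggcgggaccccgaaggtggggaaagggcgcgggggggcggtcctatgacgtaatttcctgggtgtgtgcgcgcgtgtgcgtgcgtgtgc
Dbh: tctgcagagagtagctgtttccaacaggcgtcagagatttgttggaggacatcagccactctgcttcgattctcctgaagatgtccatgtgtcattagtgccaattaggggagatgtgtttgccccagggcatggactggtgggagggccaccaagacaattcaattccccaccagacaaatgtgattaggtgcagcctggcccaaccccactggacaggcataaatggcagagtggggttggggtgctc
Phox2a: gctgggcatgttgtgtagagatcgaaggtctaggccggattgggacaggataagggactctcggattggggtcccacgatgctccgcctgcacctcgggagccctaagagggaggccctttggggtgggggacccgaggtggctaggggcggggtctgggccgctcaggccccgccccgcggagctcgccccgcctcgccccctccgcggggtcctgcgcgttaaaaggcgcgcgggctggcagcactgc
Th holds the element with its first base 45 bases before the start, and the other promoters of the set do not hold these exact letters. Chga holds the near match TGACGTAA, with a single base changed, which the search for exact letters does not count. Near matches were not searched for in Dbh, Phox2a or the other promoters, so this one has no share beside it. Of 18 of the 29 genes with a promoter entry, Foxd3 held it too, and so did 439 of 27025 promoters in all (1.62%), searched on both strands. A match is a description of the letters and not of binding. These shares use the first entry of each gene. The E-box CAGCTG, searched alike, was in the first entry of 4 of the 18 genes (Elavl3, Ngfr, Chga and Ina) and in 12.8% of all. Elavl4 held it too, in later entries that belong to other starts. A facing pair of homeodomain core motifs was in 0 of the 18 and in 0.47% of all.

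A wider autonomic list of 21 genes summed to 227 CPM in deletion 2 and to 134 to 198 CPM in the other libraries. Most of its genes were not raised there. By tested gene, deletion 2 stood at 0.0146 to 20.3 of the highest other library, with a median of 0.72. Of its 17 tested genes, Chgb and Ret were more than 4-fold above every other library there, beside 1.4% of all genes tested. Ret, the receptor of the GDNF family that sensory and enteric neurons also use, had 51.8 CPM in deletion 2 and at most 2.56 CPM elsewhere. The most abundant genes of the list, Gata3, Hand1, Gata2 and Ddc, had 18.9, 14.4, 24.1 and 33.5 CPM in deletion 2, within the range of the other libraries.

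**Figure D3:**
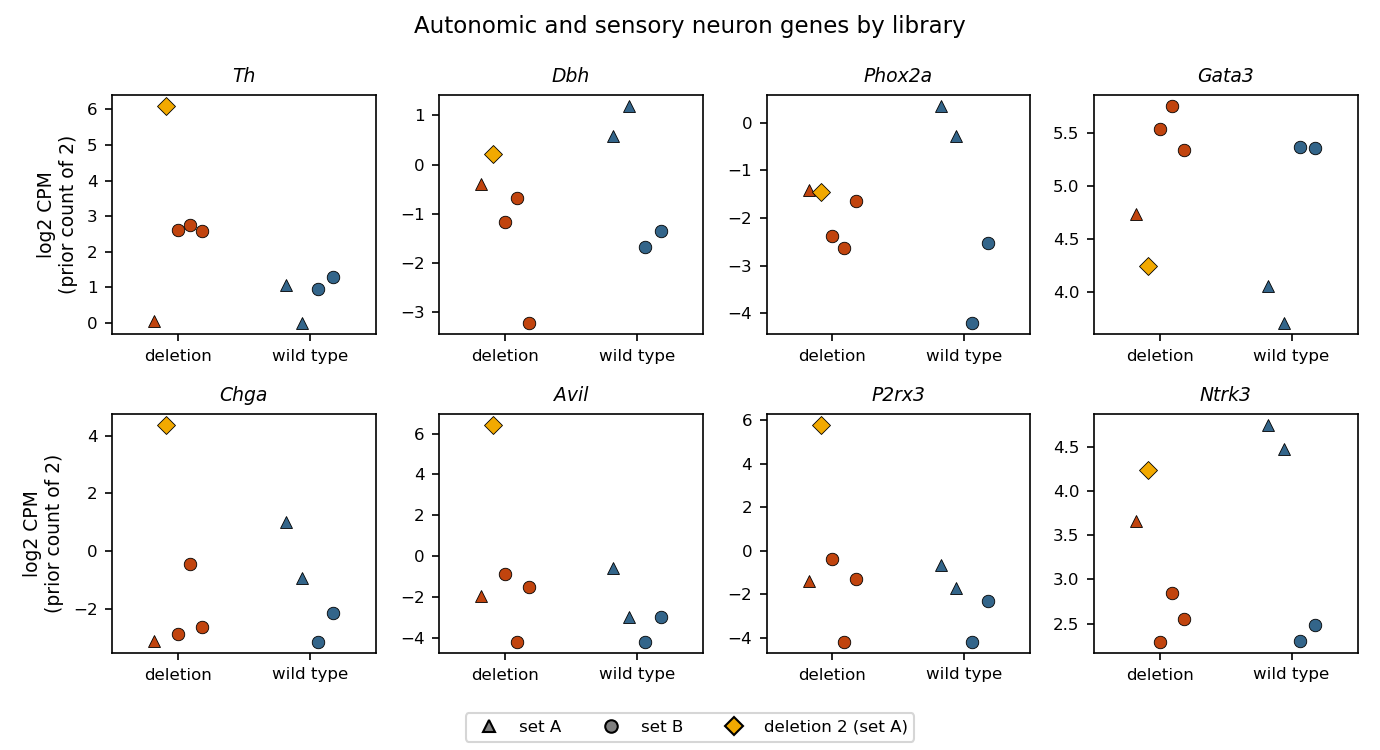
Log2 CPM (prior count of 2) of autonomic and sensory genes in the deletion libraries (left in each panel) and wild-type libraries (right), with triangles for set A, circles for set B and a diamond for deletion 2. Deletion 2 stands above all others for Th, Chga, Avil and P2rx3, and lies within the range of the others for Dbh, Phox2a, Gata3 and Ntrk3.

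The Schwann genes were split as well. Sox10, the neural crest and glial transcription factor, had 1.45, 15.6, 1.61, 0.855 and 0.796 CPM in the deletions, against 0.945, 0.0744, 0.610 and 1.38 CPM in the wild types. Fabp7, a fatty acid binding protein of Schwann cell precursors and satellite glia, had 0.825, 74.5, 0.390, 0.107 and 0.531 CPM in the deletions, against 0.723, 0.720, 0.523 and 0.363 CPM in the wild types. Outside deletion 2 both genotypes overlapped at around or under 1 CPM for both genes. S100b, a calcium-binding glial protein, had 2.72 CPM in deletion 2 and 0.0712 to 0.50 CPM elsewhere.

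Erbb3, the neuregulin receptor of Schwann cell precursors, which cushion mesenchyme also expresses, had 18.1, 32.2, 48.1, 44.9 and 37.3 CPM in the deletions, against 6.39, 6.82, 49.3 and 52.5 CPM in the wild types. Deletion 2 was in the middle of this spread, but above the other libraries of its own set, set A (6.39 to 18.1 CPM). Ngfr, the low-affinity neurotrophin receptor, had 38.9 CPM in deletion 2, 3.08-fold above the next library, and 4.22 to 12.6 CPM in the others. Foxd3, an early neural crest factor, had 8 counts in deletion 2 and at most 6 in any other library, and was not tested.

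Of 17 further Schwann genes, 14 were tested and 4 were more than 4-fold above all others in deletion 2, Ednrb, Ttyh1 and L1cam among them. Among all genes tested the share was 1.4%, and the untested genes of the list reached up to 42.3 CPM. As for the sensory list, nothing is read from that excess. Ednrb, the endothelin receptor of neural crest cells, had 246 CPM in deletion 2 and 34.2 to 60.2 CPM elsewhere. Ncam1, Pmp22 and Erbb2, which mesenchyme and other tissues also express, had 483, 215 and 110 CPM in deletion 2, against 289 to 478, 225 to 360 and 101 to 150 CPM in the other libraries.

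All 16 pan-neuronal genes were highest in deletion 2, by 4.95-fold (Gap43) to 144-fold (Ina) over the next library, with a median of 39.6-fold. Nefl, the light neurofilament chain, had 17.2, 1047, 3.73, 6.66 and 7.78 CPM in the deletions, against 42.5, 22.0, 3.69 and 2.90 CPM in the wild types. Nefm, the middle chain, had 7.73, 610, 3.48, 4.63 and 4.59 CPM in the deletions, against 11.7, 9.63, 2.76 and 1.403 CPM in the wild types. Prph, peripherin, an intermediate filament of peripheral neurons, had 2.33, 331, 0.584, 0.926 and 1.41 CPM in the deletions, against 3.92, 4.34, 0.581 and 0.581 CPM in the wild types. For these filament genes deletion 1 and wild types 1 and 2 came next after deletion 2.

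Tubb3, neuronal β-tubulin, had 24.9, 472, 49.7, 47.8 and 39.3 CPM in the deletions, against 10.8, 10.3, 37.4 and 43.5 CPM in the wild types. Stmn2, a tubulin-binding protein of growing axons, had 25.2, 333, 24.2, 28.5 and 20.01 CPM in the deletions, against 42.7, 33.9, 23.4 and 25.7 CPM in the wild types. Gap43, a growth cone protein, had 40.5, 233, 42.4, 37.0 and 41.4 CPM in the deletions, against 47.0, 46.7, 33.7 and 35.7 CPM in the wild types. These 3 genes were at 10 CPM or more in every library, and apart from deletion 2 the genotypes overlapped for each.

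Per kilobase of exon, Nefl was the most abundant of the set in deletion 2 at 310 CPM per kb, followed by Tubb3 at 253, Prph at 166, Gap43 at 153 and Stmn3 at 128. In the median of the other 8 libraries Gap43 stood at 26.9 CPM per kb and Tubb3 at 20.5, while Nefl stood at 2.14, Prph at 0.583 and Stmn3 at 0.285. The order of levels thus differed between deletion 2 and the rest.

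The remaining pan-neuronal genes were Ina, a neuronal intermediate filament, Mapt, the microtubule protein tau, Dcx, doublecortin of migrating neurons, Cntn2, an axonal adhesion molecule, Stmn3, a relative of Stmn2, the RNA-binding proteins Elavl3 and Elavl4, and Snap25, Syt4 and Scg3 of vesicle release and secretory granules. In deletion 2 they ranged between 19.8 CPM (Elavl3) and 186 CPM (Ina). Ina had 0.029 to 1.29 CPM in the other 8 libraries and Cntn2, with 136 CPM in deletion 2, 0 to 1.56 CPM. Dcx had 143 CPM in deletion 2 and 0 to 5.17 CPM elsewhere, and Stmn3 146 and 0.0242 to 2.67 CPM. Mapt had 130 CPM in deletion 2 and 0.473 to 1.89 CPM elsewhere, Syt4 68.7 and 0.0712 to 0.807 CPM, and Scg3 38.3 and 0 to 0.744 CPM. These genes were low in both genotypes outside deletion 2. Elavl4 had 130 CPM in deletion 2 and 4.26 to 11.7 CPM in the other 8 libraries, and Snap25 91.3 and 2.47 to 7.39 CPM. Of all 29 genes, 8 were at or under 1 CPM in every library other than deletion 2.

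Of 30 further pan-neuronal genes, 22 were tested and 10 passed 4-fold in deletion 2, beside 1.4% of all genes tested. Nothing is read from that excess either. The untested genes of the list reached up to 30.8 CPM. Crmp1, a mediator of semaphorin signals, had 180 CPM in deletion 2 and 23.3 to 41.0 CPM elsewhere. Uchl1, a ubiquitin hydrolase of neurons, had 138 and 43.4 to 70.4 CPM, and Dpysl3, a growth cone protein that mesenchyme also expresses, 456 and 231 to 481 CPM. The 18 genes of a central nervous system list summed to 84.8 CPM in deletion 2 and to 60.3 to 155 CPM in the other libraries, with 10 of the 18 at 0 in deletion 2, 8 of which were at 0 in all 9 libraries. Most of the sum was Nes, with 75.6 CPM in deletion 2 and 57.0 to 147 CPM in the others. A list of 9 foregut genes summed to 13.2 CPM in deletion 2 and to 1.60 to 7.67 CPM elsewhere, with 5 of the 9 at 0 in deletion 2; its part in the result was not tested.

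With all 9 libraries, the fitted log2 fold changes of deletion over wild type had a median of 3.08 over the 28 tested genes, beside 0.00 over all genes tested. The medians were 5.52 for the sensory genes, 0.89 for the autonomic, 1.49 for the Schwann and 4.09 for the pan-neuronal genes, with 25 of 28 above 0. With the replicate number as a block the median was 1.25 over all of them and 1.57 for the pan-neuronal genes. The standard errors were wide: Avil stood at 6.53 (SE 2.64), Nefl at 3.61 (SE 1.97), Th at 3.26 (SE 1.11) and Gap43 at 0.95 (SE 0.59). At an adjusted p of 0.05 edgeR called 0 of the 28, and 0% of all 16522 genes, with adjusted p-values of 0.896 to 0.963 for the 28. At an unadjusted p of 0.05 edgeR found 8 of the 28 higher and 0 lower, beside 2.32% and 2.94% of all genes, and none of the 28 was without overlap between the groups (1.8% of all genes). DESeq2 called 0 of the 7 for which it gave an adjusted p, and 38 genes in all (0.201%); for the other 22 of the 29 it gave none.

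Without deletion 2 the fitted log2 fold changes had a median of -0.09 over the 25 genes still tested, beside -0.00 over all genes, with 9 above 0 and 16 below, and of 0.06 with the replicate number as a block. The medians were 0.15 for the Schwann and -0.34 for the pan-neuronal genes. The sensory median of -0.22 and the autonomic median of 0.06 each lie between 2 genes of opposite sign, P2rx3 at 0.52 and Ntrk3 at -0.96, and Th at 1.42 and Dbh at -1.30. With Phox2a and Chga also in the list the autonomic median was -1.32 by DESeq2 and -1.31 with no filter, and without wild type 3 it was -1.66. The sensory median with no filter, Avil included, was 0.40. Foxd3, Phox2a, Chga and Avil were under the filter and have no value here. The 25 included 12 of 16 pan-neuronal genes below 0. Again edgeR called 0 of 25 and 0% of all 16278 genes, with adjusted p-values from 0.880 to 0.994, and DESeq2 called 0 of 28, with 65 genes in all (0.374%). At an unadjusted p of 0.05 edgeR found 1 of the 25 higher and 2 lower, beside 1.83% and 3.5% of all genes.

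**Figure D4:**
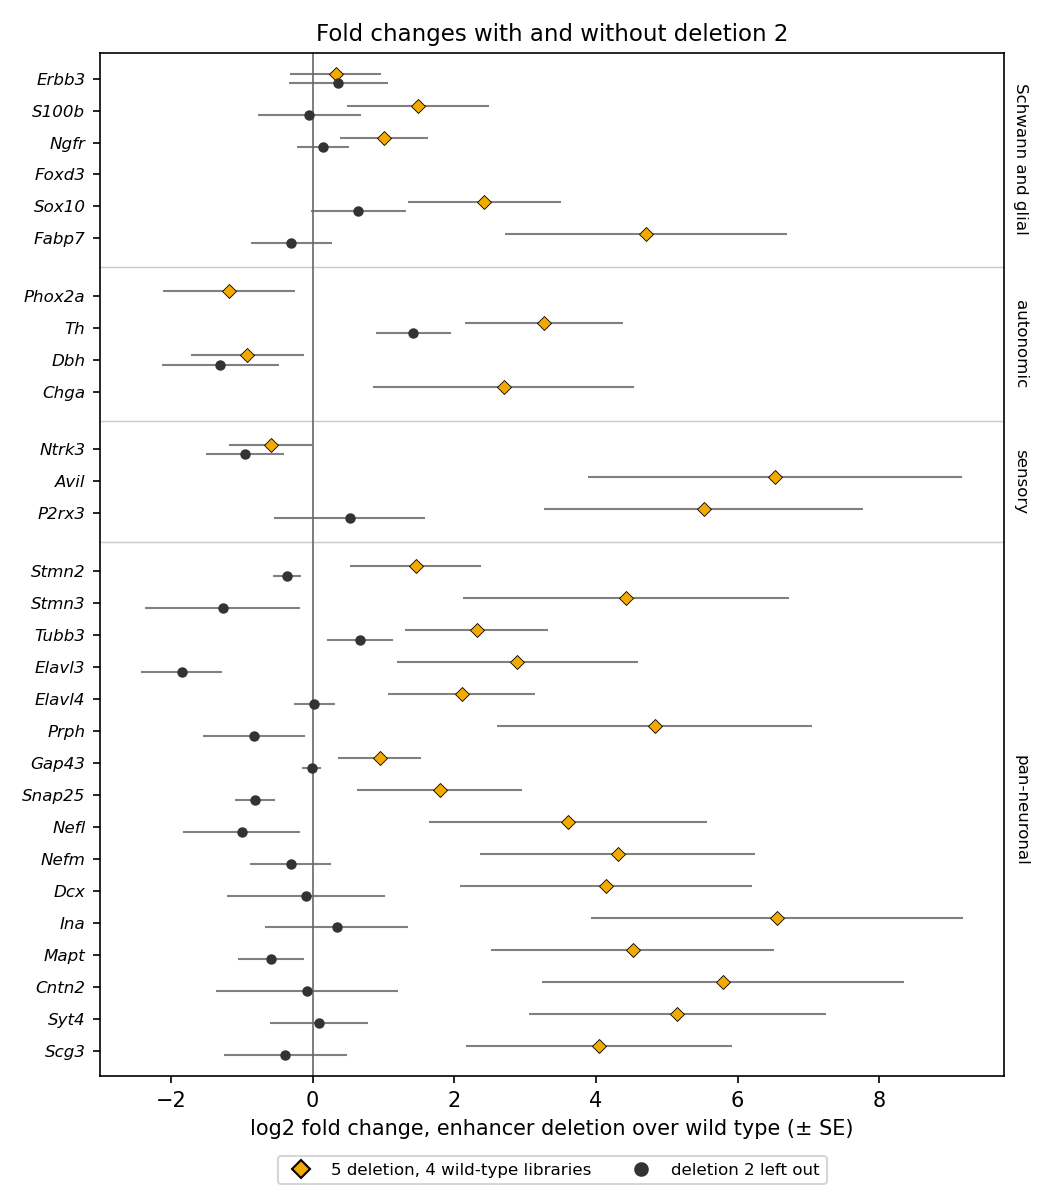
Log2 fold change of deletion over wild type, with SE bars, for the 29 genes grouped by class, fitted with all 9 libraries (diamonds) and without deletion 2 (circles). The pan-neuronal diamonds lie between 0.95 and 6.56 and the circles between -1.85 and 0.66; genes without a symbol were under the count filter.

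Th and Elavl3 had the largest fitted fold changes of the 25 genes upward and downward without deletion 2. Th stood at 1.42 (SE 0.53) on the log2 scale, with adjusted p-values of 0.901 by edgeR and 0.330 by DESeq2. Within set B the 3 deletion libraries (5.92 to 6.66 CPM) lay above both wild types (1.89 and 2.42 CPM), a log2 fold change of 1.53 ± 0.25 with an edgeR adjusted p of 0.209. Within set A, with deletion 2 left out, Th stood at -0.60 ± 0.86, deletion 1 having 0.986 CPM against 2.06 and 0.943 CPM in wild types 1 and 2. That arm of set A is 1 library, assumed to vary like the others. With deletion 2 kept, Th in set A stood at 4.55 ± 2.08.

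Elavl3 had 0.201, 0.195, 0.142 and 0.0531 CPM in deletions 1, 3, 4 and 5, against 0.806, 0.695, 0.320 and 0.363 CPM in the wild types. It was the only one of the 25 genes whose groups did not overlap (4%, beside 3.35% of all genes, 1.97% in this direction), at -1.85 ± 0.57 on the log2 scale. These levels are few reads, and its exons overlap another gene model on the same strand, Gm49318. The further lists hold 134 genes, of which 89 were tested with all libraries and 83 without deletion 2. In both fits 2 of them, Rtn1, a reticulon of neuroendocrine cells, and Pax6, a factor of brain and eye, were higher in every deletion library than in any wild type, beside 137 of all 16522 genes with 9 libraries and 1.38% of 16278 without deletion 2. Without deletion 2, 2 others were lower in every deletion library, beside 1.97% of all genes. Uchl1, whose exons overlap Uchl1os on the other strand, had 52.7, 50.6, 43.4 and 49.7 CPM in deletions 1, 3, 4 and 5, against 54.4, 70.4, 56.5 and 63.4 CPM in the wild types. Kif1a, a kinesin named after its values were seen, had 23.6, 27.1, 25.2 and 21.02 CPM in those deletions, against 27.7, 33.5, 31.0 and 30.3 CPM in the wild types. Rtn1 had 58.7, 466, 51.2, 41.0 and 66.5 CPM in the deletions, against 28.2, 20.9, 38.8 and 33.9 CPM in the wild types, and without deletion 2 a log2 fold change of 0.84 ± 0.21 with an adjusted p of 0.726 by edgeR and 0.034 by DESeq2. Pax6 had 7.99, 7.03, 5.37, 3.92 and 4.83 CPM in the deletions, against 1.81, 1.07, 1.60 and 1.81 CPM in the wild types. Of the 18 central nervous system genes, the list that holds Pax6, DESeq2 called 1 with and 1 without deletion 2, and edgeR 0. The highest log2 fold change in that list without deletion 2 was 1.82.

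Once deletion 2 was left out, genes of the group differed between the library sets. The comparison of set A (deletion 1, wild types 1 and 2) with set B (deletions 3, 4 and 5, wild types 3 and 4) was chosen after the data were seen, with genotype as a term. Of the 25 tested genes edgeR called 7 at an adjusted p of 0.05 (28%), beside 8.53% of all 16278 genes. Of the 7, 5 were higher in set A, as were 4.08% of all genes, and 2 were lower, as were 4.45%.

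The genes higher in set A were 3 filament genes, Stmn3 and Ntrk3. Nefl averaged 27.2 ± 13.5 CPM in set A and 4.95 ± 2.13 CPM in set B (SD, n = 3 and 5), with a log2 difference of 2.58 (SE 0.42; edgeR adjusted p = 0.0092). Stmn3 differed by 3.38 ± 0.67 (edgeR adjusted p = 0.018), Prph by 2.18 ± 0.44 (0.019) and Nefm by 1.75 ± 0.36 (0.019). Ntrk3 averaged 20.5 ± 7.24 CPM in set A and 5.65 ± 0.944 CPM in set B, a difference of 1.77 ± 0.25 (edgeR adjusted p = 0.0065). For each of these genes all 3 libraries of set A were above all 5 of set B.

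Erbb3 and Tubb3 ran the other way. Erbb3 averaged 10.5 ± 6.67 CPM in set A and 46.5 ± 5.77 CPM in set B, a log2 difference of -2.14 ± 0.31 (edgeR adjusted p = 0.0066). Tubb3 averaged 15.3 ± 8.32 CPM in set A and 43.5 ± 5.30 CPM in set B, a difference of -1.45 ± 0.21 (edgeR adjusted p = 0.0067). Nrg1, the neuregulin that binds ERBB3, was also lower in set A, with 4.35 to 5.51 CPM there and 14.8 to 21.05 CPM in set B (log2 difference -1.73 ± 0.18, edgeR adjusted p = 0.0028).

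Genes of other cells moved with the sets. Of 9 erythroid genes, 5 were called higher and 1 lower in set A; Hbb-bs, an adult β-globin named here after its values were seen, had 321 to 1687 CPM in set A and 16.8 to 68.5 CPM in set B. Their part in the result was not tested. Set A held 3 libraries, 2 of them wild type, and the counts of calls leaned on single libraries. Without wild type 3 edgeR called 226 genes and 3 of the 25, without wild type 4 244 genes, without wild type 1 623 genes and without deletion 3 732 genes, where all 8 libraries gave 1389 genes and 7 of the 25. Erbb3, Ntrk3 and Tubb3 were called whichever of the 8 libraries was left out. Without wild type 3 Stmn3, Prph, Nefl and Nefm were not called, without wild type 4 Prph, Nefl and Nefm were not, and without wild type 1 Stmn3, Prph and Nefm were not, while Th was. With deletion 2 kept, edgeR called 1625 genes and 5 of the 29, namely Erbb3, Ntrk3, Stmn3, Nefl and Dcx, so that Tubb3, Prph and Nefm were not called.

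**Figure D5:**
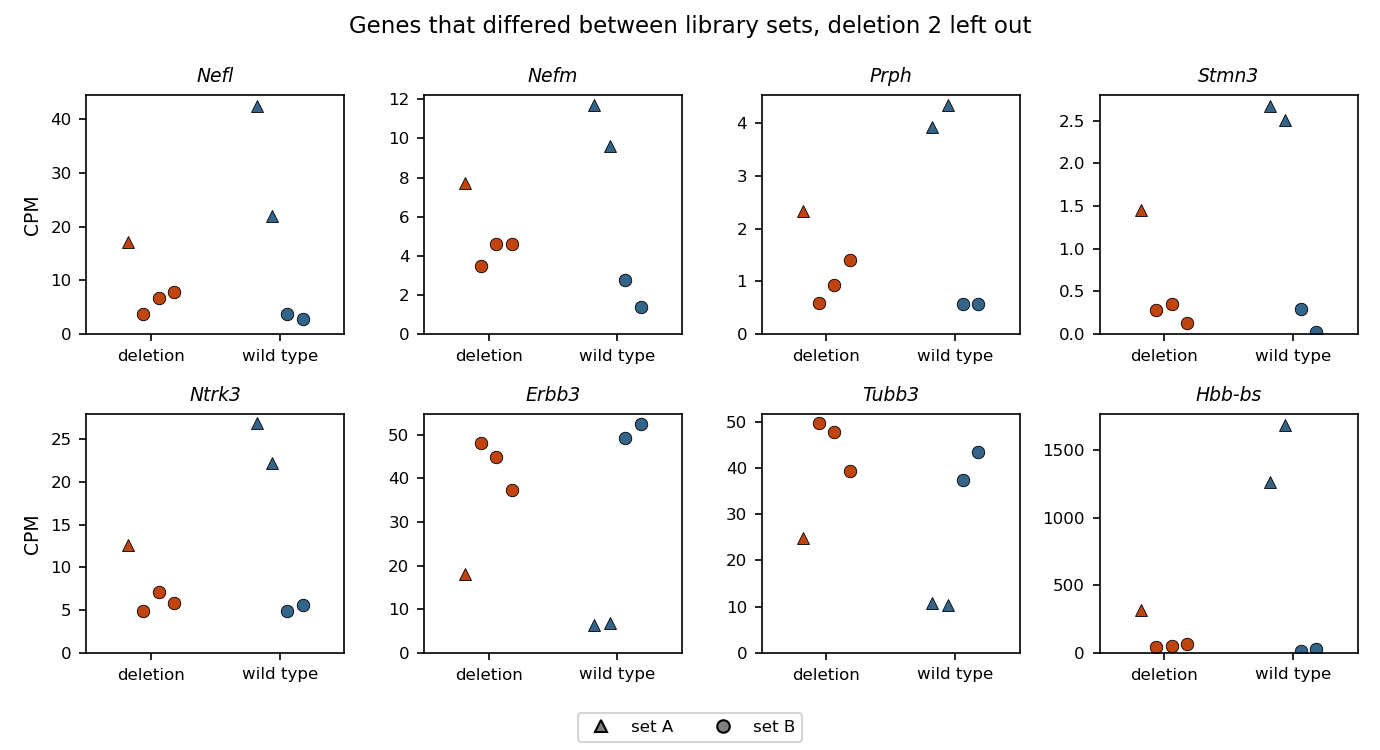
CPM of the 7 genes called between the library sets and of Hbb-bs, in the deletion libraries (left in each panel, deletion 2 left out) and the wild types (right), with triangles for set A and circles for set B. In each panel the triangles and circles separate within both genotypes: triangles are higher for Nefl, Nefm, Prph, Stmn3, Ntrk3 and Hbb-bs, and lower for Erbb3 and Tubb3.

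Whether the deletion acted differently in the 2 sets was tested by an interaction of genotype with set. With all 9 libraries edgeR called none of the 28 genes, with a lowest adjusted p of 0.111, and 10 of 16522 genes in all (0.0605%). Without deletion 2 it called none of the 25, with a lowest adjusted p of 0.0738 for Erbb3, and 0% of all genes. At an unadjusted p of 0.05 the interaction took in 1215 genes with all libraries (7.35%) and 953 without deletion 2 (5.85%). Erbb3 stood at 1.46 ± 0.34 (SE) on the log2 scale in set A and -0.23 ± 0.13 in set B without deletion 2. The deletion arm of set A is then 1 library, assumed to vary like the others, so this fold and the interaction without deletion 2 rest on it. With deletion 2 kept, Erbb3 in set A stood at 1.95 ± 0.34.

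The kit that made the libraries does not mark the strand of the RNA, so reads where genes overlap on opposite strands cannot be assigned to either. Annotated exons of 7 of the 29 genes overlap a gene on the other strand: Phox2a with Inppl1, Avil with Tsfm, P2rx3 with Ssrp1, Ina with Nt5c2, Syt4 with Gm26658, and Nefl and Nefm with each other. Foxd3 overlaps Gm23366 on its own strand.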

How the data were processed

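Dissected cardiac outflow tracts gave total RNA (RNeasy), which a SMART-Seq HT kit for low input turned into libraries, per the labels' protocols. The authors deposited 1 table of whole-number read counts per gene symbol for each of the 9 libraries. The submitters' processing notes name HTSeq 0.6.0, STAR 2.5.0c, Picard, DESeq2 and the build mm10; which annotation and strand setting the authors counted with is not given in the sources used here. Rows without a gene took 20.6% to 23.5% of reads and were left out.

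The main test was that of edgeR 4.0.16 under R 4.3.3 (quasi-likelihood, robust, two-sided, TMM factors, filterByExpr with a minimum count of 10, genotype as the only term, Benjamini-Hochberg adjustment over all genes tested at 0.05). The low-count filter was applied anew to each set of libraries. CPM values use TMM-scaled totals, with a prior count of 2 on the log2 scale. Alternatives were DESeq2 1.42.0, its size factors within edgeR, no filter, blocks, fits within a library set and leaving out each library. The test was tried on simulated counts. All pairs of libraries differed by more than sampling noise. Nothing says that samples are separate embryos, so p-values reflect the spread between samples only, part of which may be technical.

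The genes and lists were chosen with earlier results of these data known. The genes named were all 29, Nkx2-5, Prdm12, Prrxl1, Gata3, and of each further list any gene called and the 4 most abundant; others are said to be chosen after their values were seen, and include Pax6 and Rtn1 as genes without overlap, Ttyh1, L1cam, Chgb and Ret as genes past 4-fold. Some genes that this rule takes in are not reported here. Promoter sequences are from RefSeq on GRCm38.p6, found for 18 of the 29 genes by symbol; gene overlaps are from the GENCODE annotation of mm10.

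The genotypes share replicate numbers 1 to 4. The correlation of same-numbered libraries, as deviations from the group mean, was 0.242, 0.137, 0.227 and 0.176. Same-numbered libraries also share a library set, so these values cannot tell pairing apart from set. The main fit has no block, and the fit with the number as a block is an alternative. In that block, deletion 5, and wild type 2 where deletion 2 is left out, have no partner and add nothing.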

Additional observations from a re-analysis of the deposited data

Results flagged for a closer look

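Deletion 2 stood apart from the other 4 deletion libraries by Dixon's criterion on log2 CPM for 15 of the 29 genes, always as the highest. Its levels were 333 CPM for Stmn2, 472 for Tubb3, 19.8 for Elavl3, 130 for Elavl4, 331 for Prph, 233 for Gap43, 91.3 for Snap25, 1047 for Nefl, 610 for Nefm, 186 for Ina, 130 for Mapt and 38.3 for Scg3 among the pan-neuronal genes. Among the Schwann genes they were 0.279 CPM for Foxd3, 15.6 for Sox10 and 74.5 for Fabp7. Foxd3 was near the floor, with 0 CPM in the other 4 deletion libraries. Sensory and autonomic genes such as Avil (86.8 CPM) were not marked by this criterion, which divides the gap by the group's whole range. The criterion was run only on the 29 genes and Nkx2-5, so no share over all genes stands beside the 15. Chance marks about 5% of groups. That share is no yardstick here, since the genes were picked with the levels of deletion 2 known and share the same libraries, so the marks are a description and support nothing.

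For Nkx2-5, wild type 1 with 18.8 CPM was far below the other wild-type libraries.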

How the results depend on the processing

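None of the 29 genes was called by edgeR or DESeq2 in deletion against wild type under any alternative run. With 9 libraries DESeq2 gave an adjusted p for only 7 of the 29, so it could not call the other 22 there. DESeq2 called 38 genes in all with 9 libraries and 65 without deletion 2, where edgeR called 0, and the libraries of set A alone gave 2 calls without deletion 2. In set B alone the medians of the log2 fold changes were 0.20 over all members, -0.23 for Schwann, 0.84 for autonomic (2 genes), 2.20 for sensory and 0.45 for pan-neuronal genes. That sensory median is the value of P2rx3, which had at most 0.723 CPM in these libraries, so it rests on few reads. The autonomic median without deletion 2 was -1.32 by DESeq2, -1.31 with no filter and -1.50 in set A alone, where Phox2a and Chga enter the list. The interaction with library set called 0 genes without deletion 2 and 2 without deletion 5. For set A against set B, DESeq2 called 2685 genes and 11 of the 29. The replicate block changed no call (0 of 16522 genes with 9 libraries, 0 without deletion 2), and gave medians over all members of 1.25 with 9 libraries and 0.06 without deletion 2.

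Leaving out 1 library at a time moved the genes called between 0 and 1 in both comparisons and between 226 and 1734 for the library sets (3 to 7 of the 25). With 9 libraries the median ranged from -0.090 to 3.76 over all members, 0.15 to 2.02 for Schwann, -0.91 to 3.02 for autonomic, -0.22 to 6.36 for sensory and -0.34 to 4.64 for pan-neuronal genes, the lowest without deletion 2 except for the autonomic genes. Without deletion 2 it ranged from -0.56 to 0.05, -0.01 to 0.43, -1.66 to 0.27, -0.45 to 0.80 and -0.58 to -0.02 in the same order. Levels under about 0.1 CPM rest on 3 counts or fewer.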

Other observations

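Deletion 2 was also high in neuronal genes outside the lists, picked here for their level after it was seen. Of the 232 genes more than 4-fold above every other library in deletion 2, 47 were in the lists and 185 in none. Sncg, a synuclein of peripheral neurons, had 216 CPM in deletion 2 and at most 7.94 CPM elsewhere. Kif5a, a kinesin of axonal transport, had 112 CPM in deletion 2 and at most 3.95 CPM elsewhere. Gal, the neuropeptide galanin, had 83.9 CPM in deletion 2 and at most 5.42 CPM elsewhere. Fgf13, an intracellular partner of sodium channels, had 434 CPM in deletion 2 and at most 75.5 CPM elsewhere.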
